A study of Rattus norvegicus with 24 samples.

Results

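The calcium-binding proteins of retinal neurons were followed in the diabetic rat retina through 8 genes, listed by name. They were the calcium buffers Calb1 (calbindin), Calb2 (calretinin) and Pvalb (parvalbumin), the neuronal calcium sensors Hpca (hippocalcin), Vsnl1 (visinin-like protein) and Ncs1 (neuronal calcium sensor), and the calmodulin genes Calm2 and Calm3. Every array probe whose RefSeq accession mapped to one of these symbols was taken. This gave 8 probes for 7 of the 8 genes, of 33849 rat probes and 4013 genes with a symbol. Calm2 had 2 probes, GE20501 and GE21756. No probe was matched to Ncs1 through its accession, and Ncs1 is not analysed here. All 8 member probes passed the filter on dim probes.

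Male Sprague Dawley rats received streptozotocin (STZ) or the citrate vehicle alone (Control) by intraperitoneal injection. STZ destroys the insulin-producing beta cells of the pancreas. The labels give 1 month (1M) or 3 months (3M) after the injection, and no age. According to the study's methods the rats received no insulin, and STZ rats entered the diabetic groups only above a blood glucose limit, so the STZ groups hold rats that became diabetic. Total RNA of whole retina was hybridised to CodeLink rat whole genome arrays, 6 arrays for each of the 4 groups, and the series describes the 6 as biological replicates. The animals of the 2 time points were separate, and each STZ group has a Control group of its own time point.

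These proteins bind calcium through EF-hand motifs. Calbindin, calretinin and parvalbumin act mainly as buffers that shape the size and duration of calcium signals, and antibodies to them are classical stains of retinal interneurons: calbindin for horizontal cells, calretinin for amacrine and ganglion cells and parvalbumin for AII amacrine cells in the rat. Hippocalcin, visinin-like protein and their relative recoverin of photoreceptors are sensors that change shape and membrane binding when calcium rises. Calmodulin is the general calcium sensor of the cell, activating kinases, the phosphatase calcineurin, phosphodiesterases and channels, and in mammals several separate genes encode the same calmodulin protein.

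The level of a probe is given as log2 of its background-subtracted intensity divided by the median of all rat probes of that array, so that 0 is the array median and a difference of 1 is a 2-fold change. The percentile rank of a probe within its own array is given beside it, because it does not depend on the scaling. Levels are compared between groups for each probe and not between probes, since probes differ in how well they bind their target. In whole retina, fewer cells of a type and less RNA per cell cannot be told apart. The summed level of the 7 measured rod and cone markers was 185 to 511 times the array median over the arrays of all 4 groups, a check of the tissue label. The 3M Control replicate 2 array stood apart, with a median correlation with its own group of 0.842 against 0.916 to 0.980 for the others. The spread of the levels within an array, as the interquartile range on the log2 scale, was 1.48 to 2.23 in the 3M Control arrays, 2.07 to 2.70 in the 3M STZ arrays and 3.36 to 3.67 in the 1M arrays.

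At 3M, 5 of the 8 member probes were higher in STZ retinas than in Control retinas and none was lower. To be called, a probe needed at least a 1.2-fold difference and a limma p that stayed under 0.05 after Benjamini-Hochberg adjustment over all 22025 tested probes. The 5 called probes were those of Calb2, Pvalb, Calm2 (both probes) and Calm3. Their number stands against a background of 54.1% of all tested probes called at 3M, 50.5% higher and 3.55% lower. The median difference of the 8 probes was 0.61 on the log2 scale, against 0.44 over all tested probes. Each array's median is 0 on this scale, so the upward shift belongs to the tested probes and not to the array as a whole. This background depended on the filter on dim probes. Without the filter the 3M median difference was 0.19, and 10879 of 33849 probes passed as higher against 4792 as lower. With a filter at the 50th percentile it was 0.52, and 10385 of 16950 probes passed as higher against 151 as lower. Each member is given below also by its rank.

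**Figure D1:**
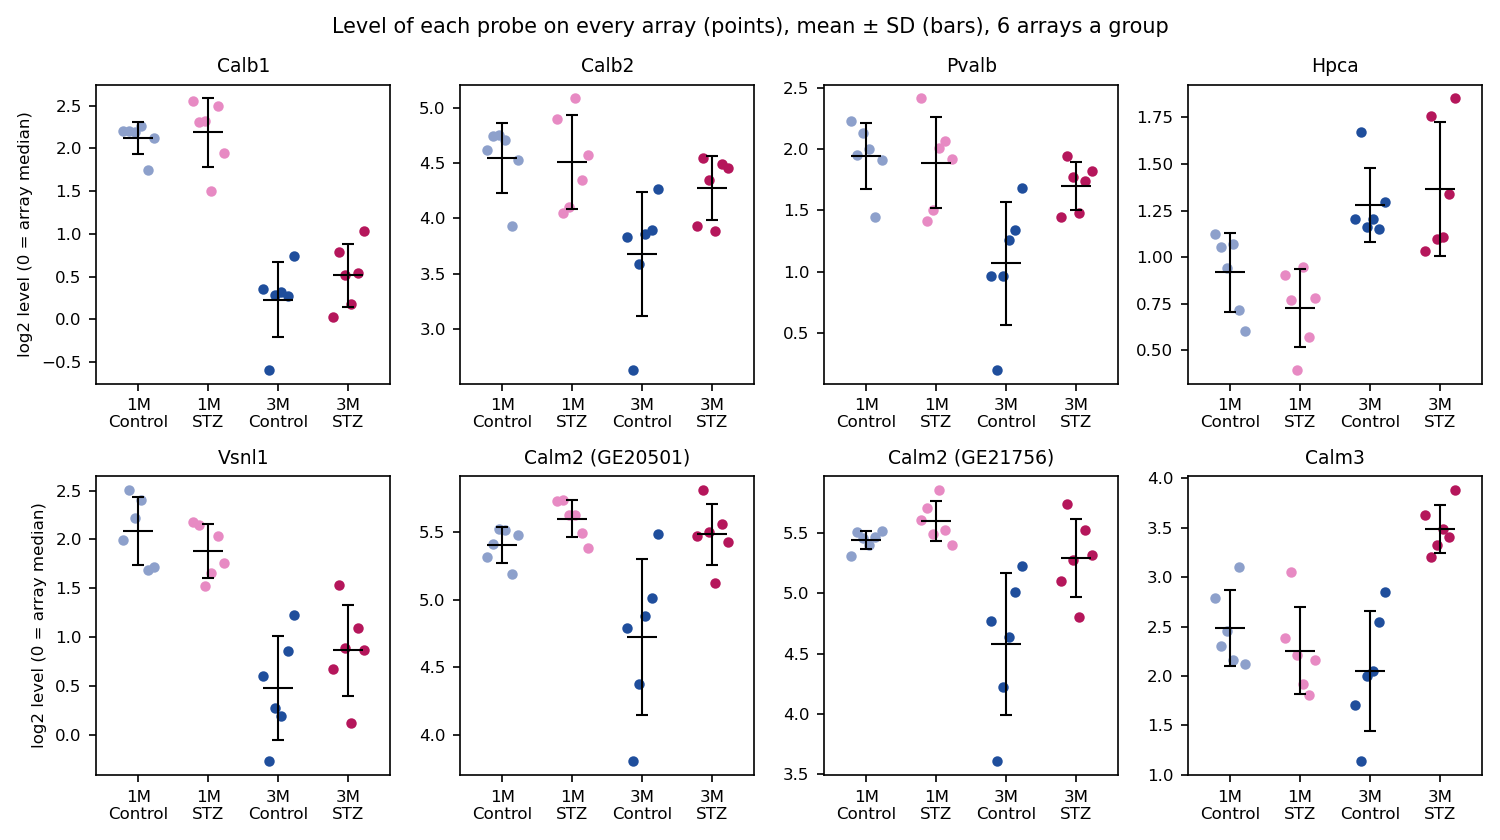
Level of each of the 8 member probes (log2, vertical axis, 0 is the array median, each panel with its own range) on each array of the 4 groups, with the group mean and SD. In the Calm3 panel the 6 points of the 3M STZ group lie above the 6 points of the 3M Control group, while in every other panel the points of these groups overlap.

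Calm3 had the largest difference of the member probes at 3M. Its level in the 6 Control arrays at 3M was 1.71, 1.14, 2.00, 2.06, 2.55 and 2.85, and in the 6 STZ arrays it was 3.63, 3.20, 3.33, 3.49, 3.40 and 3.89. Every STZ array lay above every Control array. The difference was 1.44 ± 0.24 (SE, n = 6 and 6), a 2.71-fold higher intensity, with an adjusted p of 0.000147 from limma. In the authors' deposited normalized values the mean was 4.43 ± 1.80 (SD, n = 6) in Control and 11.3 ± 1.98 in STZ retinas at 3M. Of all tested probes, 9.49% had every 3M STZ array above every 3M Control array, and Calm3 was the only member probe among them. Its difference was larger than that of 99.2% of the tested probes, with 180 probes above it.

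The rank of Calm3 within the array also separated the groups. It was between the 79.0 and 91.6 percentile in the 3M Control arrays, with a median of 88.0, and between the 92.7 and 96.5 percentile in the 3M STZ arrays, with a median of 94.2. On this scale 6.86% of the tested probes had all STZ arrays above all Control arrays. The rank rose by 7.62 ± 2.26 percentile points (SE), adjusted p = 0.0139 by limma. On the percentile rank Calm3 was called alone (1 of 8 probes), where 30.7% of all tested probes were called.

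Quantile normalization, which gives every array the same distribution of levels, also left Calm3 as the only called member. Its difference at 3M was then 0.91 ± 0.22 (SE), a 1.88-fold higher intensity, with an adjusted p of 0.00236 from limma. Of all tested probes 31.5% were called after quantile normalization, 24.6% higher and 6.92% lower. With the 3M Control replicate 2 array left out as well, the Calm3 difference was 0.78 with an adjusted p of 0.00656 (limma).

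**Figure D2:**
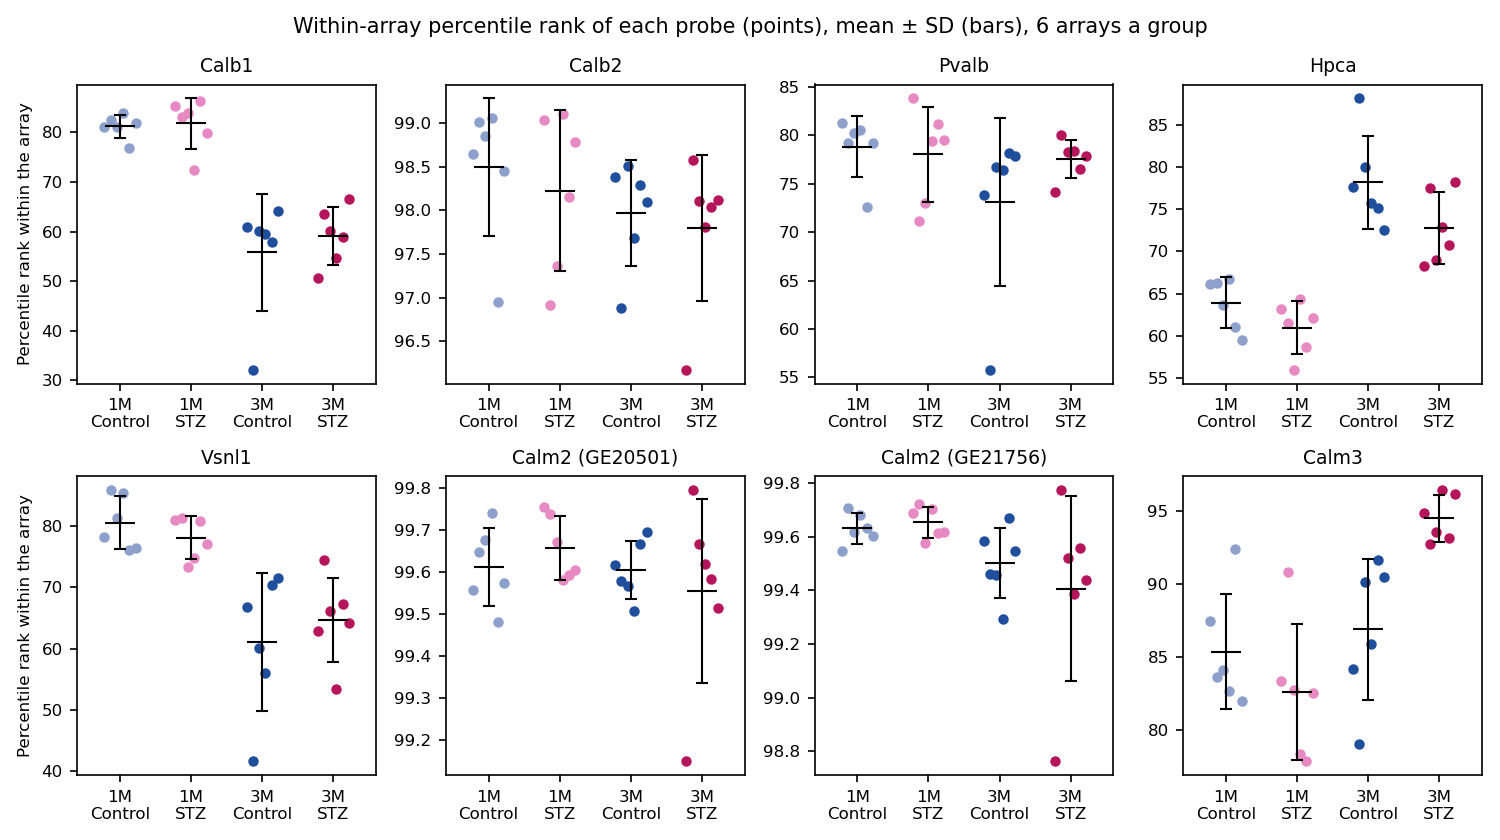
Percentile rank of each member probe within its own array (vertical axis, each panel with its own range) for the 24 arrays, with the group mean and SD. Calm3 ranks 92.7 to 96.5 in the 3M STZ arrays and 79.0 to 91.6 in the 3M Control arrays, while Calb2 and both Calm2 probes lie at the top of the scale in all groups, where a change can hardly show.

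Calm2 was higher at 3M on the log2 scale with both of its probes. With GE20501 the level ran from 3.80 to 5.49 in the 3M Control arrays (median 4.84) and from 5.12 to 5.81 in the STZ arrays (median 5.49). The groups overlapped, with 3 of the 6 STZ arrays above all Control arrays. The difference was 0.76 ± 0.19 (SE), adjusted p = 0.00233 by limma. GE21756 ran from 3.61 to 5.23 in Control and from 4.80 to 5.74 in STZ retinas, a difference of 0.72 ± 0.19 with an adjusted p of 0.00479 (limma). The rank of Calm2 lies at the top of its scale, where it has little room to move. For GE20501 its mean was the 99.6 percentile in both 3M groups (difference -0.05 percentile points), and for GE21756 it was 99.5 in Control and 99.4 in STZ retinas. After quantile normalization the differences were -0.03 and -0.06 on the log2 scale, and neither was called.

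Of the calmodulin members measured, Calm3 was thus called at 3M by both scalings and Calm2 by the median scaling alone. The probe sequences were not used here, so it was not tested whether the probe of one calmodulin gene also binds transcripts of the others.

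Of the calcium buffers, Calb2 and Pvalb were called higher at 3M and Calb1 was not. The Calb2 level was 2.63 to 4.27 in the 3M Control arrays (median 3.85) and 3.89 to 4.55 in the STZ arrays (median 4.40). All 6 STZ arrays were above the Control median, and the groups overlapped. The difference was 0.60 ± 0.22 (SE), adjusted p = 0.0268 by limma. This call was lost without 3M Control replicate 2 (0.39), 3M STZ replicate 2 (0.54), replicate 5 (0.55) or replicate 6 (0.56). It was also lost with separate models of the time points and when the 5th percentile was subtracted within arrays. By rank, which is near the top of the scale for Calb2, 1 of the 6 STZ arrays was above the Control median, and after quantile normalization the Calb2 difference was -0.05.

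Pvalb ran from 0.20 to 1.68 in the 3M Control arrays (median 1.11) and from 1.45 to 1.94 in the STZ arrays (median 1.76), and 4 of the 6 STZ arrays lay above all Control arrays. The difference was 0.63 ± 0.20 (SE), adjusted p = 0.0111 by limma. It was 0.46 without the 3M Control replicate 2 array, and was still called. The mean rank was the 73.1 percentile in Control and 77.5 in STZ retinas, a difference of 4.40 points with an adjusted p of 0.283 (limma). After quantile normalization the difference was 0.28 and was not called.

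Calb1 was not called at 3M on any of these scales. Its level was -0.59 to 0.74 in the Control arrays (median 0.30) and 0.03 to 1.03 in the STZ arrays (median 0.53), with 4 of 6 STZ arrays above the Control median. The difference was 0.28 with a 95% confidence interval of -0.13 to 0.70 and an adjusted p of 0.229 from limma. Without 3M Control replicate 2, which lay far below its group for Calb1, the difference was 0.12.

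Neither of the measured calcium sensors among the members was called at 3M. Vsnl1 ran from -0.27 to 1.23 in the Control arrays (median 0.44) and from 0.13 to 1.54 in the STZ arrays (median 0.88), a difference of 0.39 with an interval of -0.07 to 0.85 and an adjusted p of 0.142 (limma). It was 0.24 without 3M Control replicate 2, and was called when 3M Control replicate 6 (0.54) or 3M STZ replicate 4 (0.53) was left out. Hpca ran from 1.15 to 1.67 in Control and from 1.03 to 1.85 in STZ retinas, a difference of 0.08 with an interval of -0.24 to 0.40 and an adjusted p of 0.658. The sign of the Hpca difference depended on the scaling. Its mean rank was the 78.2 percentile in Control and 72.8 in STZ retinas, and the difference was -5.40 points by rank (adjusted p = 0.0825, limma) and -0.39 on the log2 scale after quantile normalization (adjusted p = 0.0799, limma), neither called.

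**Figure D3:**
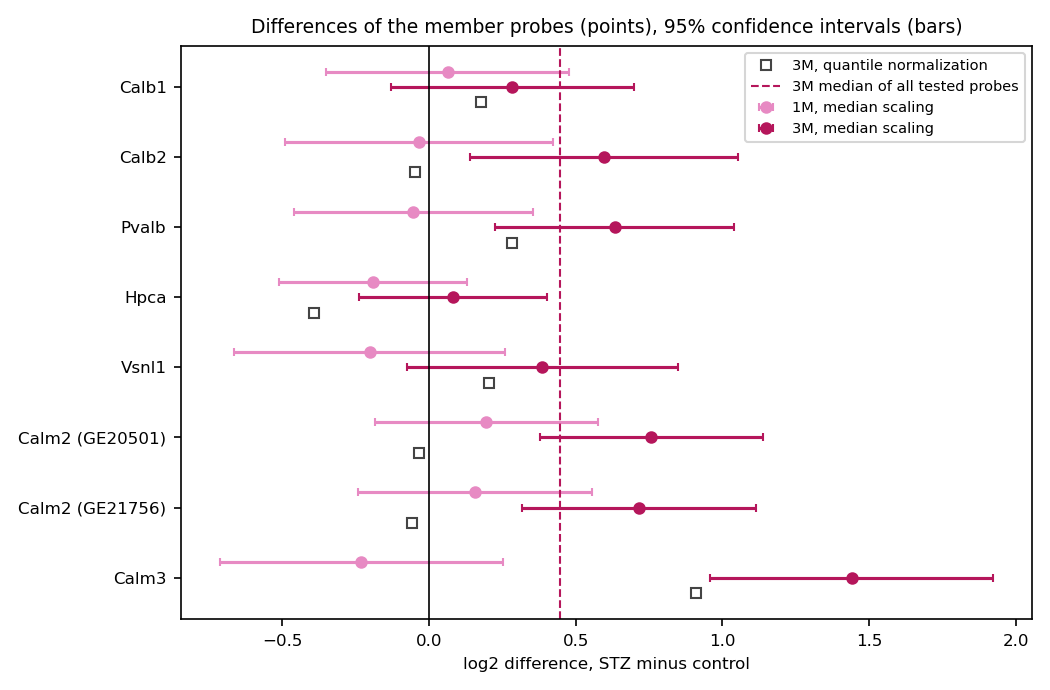
Difference between STZ and Control (log2, horizontal axis) for each member probe at 1M and 3M, with 95% confidence intervals from limma, and the 3M difference after quantile normalization as open squares. Against the dashed line at 0.44, the median of all tested probes at 3M, the Calm3 interval is the only one that lies wholly to its right, and its quantile-normalized value of 0.91 compares with -0.39 to 0.28 for the other probes.

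Relative to the median of all tested probes, Calm3 was higher by 1.00 on the log2 scale, the Calm2 probes by 0.31 and 0.27, Pvalb by 0.19 and Calb2 by 0.15, while Vsnl1 stood at -0.06, Calb1 at -0.16 and Hpca at -0.36. The spread of levels within an array moved with treatment at 3M, treatment accounting for 67.3% of its variance over these 12 arrays. With that spread as a covariate no member was called, and 0% of all tested probes were called (0 of 22025). The Calm3 difference was then 0.91 ± 0.37 (SE), with an unadjusted p of 0.0201 and an adjusted p of 0.543 (limma). The array's median intensity before scaling, another covariate, was lower in the 3M STZ arrays (125 to 164) than in most 3M Control arrays (149 to 308). With it, 2 of the 8 probes were called, Calm3 (1.35, adjusted p = 0.00484, limma) and Calm2 GE20501, against 18.4% of all tested probes. The test of the study's methods, which does not assume equal variances, called 1 of the 8 probes, Calm3, at p under 0.01 and 1.2-fold, where 16.9% of all tested probes passed. After Benjamini-Hochberg adjustment it also called Calm3 alone, against 8.72% of all tested probes.

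**Figure D4:**
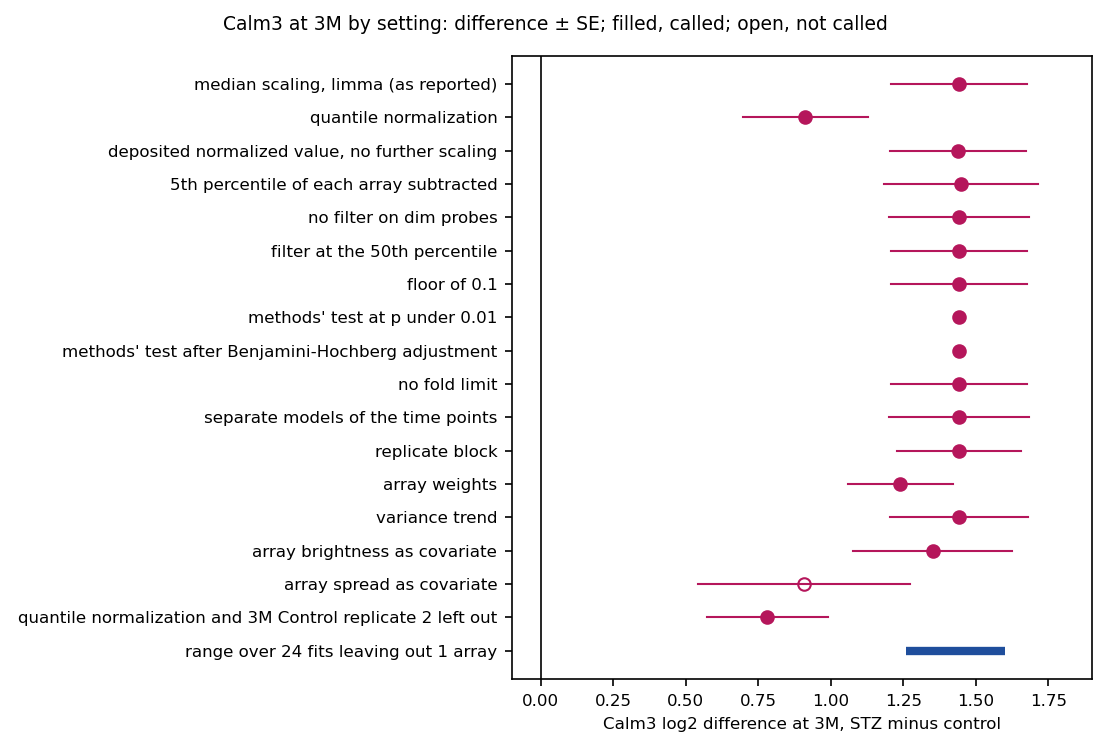
The 3M difference of Calm3 between STZ and Control (log2, horizontal axis, points with SE) under each way of scaling, filtering and testing, with the range over the fits that leave out 1 array as a bar. All points lie between 0.78 and 1.45, and the only open point, not called, is the fit with the array's spread as a covariate.

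Markers of retinal neurons are given beside the members, to be read against the 50.5% of all tested probes called higher at 3M (24.6% after quantile normalization). Of the measured markers, 3 of 4 of horizontal cells were called higher and 1, Onecut1, was called lower, with a median difference of 0.59. For amacrine cells, 7 of 12 were higher and none lower (median 0.54), and for ganglion cells 5 of 7 were higher (median 0.54). Of 2 measured bipolar cell markers 1 was higher (median 0.48). After quantile normalization the horizontal, amacrine and ganglion cell lists had medians of 0.13, 0.06 and 0.00. No marker of these lists was then called higher, while 1 of horizontal and 1 of amacrine cells were called lower. Of 7 rod and cone markers 3 were called higher, with a median of 0.30, and after quantile normalization none was higher and 2 were lower, with a median of -0.36.

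Markers of some other cells and tissues moved with the Calm3 difference at 3M. Of all tested probes 50.5% were called higher at 3M, and 24.6% after quantile normalization. Of 9 measured lens markers 8 were called higher at 3M, with a median of 1.47. Their summed level was 168 to 429 in the 3M Control arrays and 584 to 997 in the 3M STZ arrays, and 242 to 586 in the 1M Control arrays and 57.3 to 588 in the 1M STZ arrays. Of 4 microglia markers 3 were higher (median 0.95, summed level 5.3 to 8.7 in Control and 8.6 to 13.4 in STZ retinas), and of 8 Mueller glia markers 5 were (median 0.80, 69.6 to 194 and 189 to 262). For skeletal muscle 3 of 4 were higher, with summed levels of 7.6 to 12.0 and 13.4 to 14.8. After quantile normalization 3 lens, 3 microglia and 3 Mueller glia markers were called higher, with medians of 0.45, 1.00 and 0.06, and of the muscle markers 1 was higher and 1 lower. Erythrocyte and pigment epithelium markers did not move in this way across the group. Of 3 erythrocyte markers 1 was higher, with summed levels of 2.6 to 4.0 and 2.5 to 3.1. Neither of 2 markers of the retinal pigment epithelium was called. The summed level of that list was 2.4 to 12.9 in 3M Control arrays (median 5.4) and 2.3 to 97.2 in 3M STZ arrays (median 3.5). At least 1 STZ array thus lay far above all Control arrays. Of the tested markers, none of these lists has one at 0. Their part in the Calm3 difference was not tested.

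At 1M none of the 8 member probes was called, where 0.00908% of all tested probes were (2 of 22025, limma, with 927 probes at an unadjusted p under 0.05). None of the 8 was at an unadjusted p under 0.05 either. The differences ran from -0.23 for Calm3 to 0.20 for Calm2 GE20501, with a median of -0.04 on the log2 scale, and all had an adjusted p of 0.9999. Calm3 was between 2.12 and 3.10 in the 1M Control arrays (median 2.38) and between 1.81 and 3.05 in the STZ arrays (median 2.19). The groups overlapped almost wholly, and the 95% interval of the difference was -0.71 to 0.25. Calb2 was 3.93 to 4.75 in Control and 4.05 to 5.09 in STZ retinas, a difference of -0.04, and Pvalb was 1.45 to 2.23 and 1.41 to 2.42, a difference of -0.05. Hpca was the only member with no 1M STZ array above the Control median (0.60 to 1.12 in Control, 0.40 to 0.95 in STZ retinas, difference -0.19).

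The difference between STZ and Control was larger at 3M than at 1M for Calm3. The 3M difference exceeded the 1M difference by 1.67 ± 0.33 (SE) on the log2 scale, with an adjusted p of 0.0115 in limma's interaction test. Of the 8 member probes 1, Calm3, had a called interaction, against 15.5% of all tested probes. That background rests on single arrays, since the 3414 called probes became 759 without 3M STZ replicate 6 and 9230 without 3M Control replicate 6. After quantile normalization the interaction was 1.15 with an adjusted p of 0.0189 (limma). The Calm3 interaction was not called with array spread as a covariate (1.13, adjusted p = 0.912, limma) or on the percentile rank without 3M Control replicate 2 (8.79 points, adjusted p = 0.0575). For the other 7 probes the interaction was not called, which does not show that their differences were the same at both times.

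The Control retinas of the time points differed in several of these probes. Those differences are described without a test, since time after injection and the separate sets of animals cannot be told apart. The spread of levels within an array differed as well, at 3.36 to 3.67 in the 1M Control and 1.48 to 2.23 in the 3M Control arrays. Its part in the differences was not tested. Calb1 ranked between the 76.9 and 83.9 percentile in the 1M Control arrays and between 32.1 and 64.2 in the 3M Control arrays. Vsnl1 ranked between 76.1 and 85.9 at 1M and between 41.6 and 71.5 at 3M. Hpca went the other way, from 59.5 to 66.7 at 1M to 72.5 to 88.1 at 3M. For these 3 genes the Control arrays of the time points did not overlap by rank, as was so for 35.02% of all tested probes. The mean ranks differed by -25.4, -19.5 and 14.3 percentile points, and Calm3 by 1.53. The STZ arrays of Calb1 stood apart between the time points in the same way (72.5 to 86.3 against 50.7 to 66.6). Those of Hpca also stood apart, in the direction of its Control arrays (56.0 to 64.4 against 68.3 to 78.2). Those of Vsnl1 overlapped (73.4 to 81.4 against 53.4 to 74.5).

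The same comparison was made for 53 other measured genes of calcium handling, of 115 listed in 7 groups. At 3M 27 of them passed as higher and 2 as lower, where 50.5% and 3.55% of all tested probes did. Their median difference was 0.45, close to that of all tested probes. After quantile normalization 14 passed as higher and 5 as lower around a median of 0.15, against 24.6% and 6.92% of all tested probes. By both scalings 12 were called in the same direction, a count given without a share over all tested probes. At 1M none of the 53 was called.

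Besides the members, the neuronal calcium sensor family had 3 measured genes, and none was called on the median scale. Recoverin (Rcvrn), the calcium sensor of photoreceptors, had a difference of 0.30 (adjusted p = 0.157, limma) and Hpcal1 of 0.08. After quantile normalization both were called lower, Rcvrn at -0.46 and Hpcal1 at -0.41. Kcnip1, a sensor that binds potassium channels, was at 0.41 and not called. The parvalbumin relative Ocm (oncomodulin) was at 0.23, not called, and at 0.70, called, after quantile normalization.

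Among the calmodulin-like genes, Cib1 (0.78) and Necab2 (0.56) were called higher on the median scale and not after quantile normalization (0.45 and 0.05), and Cabp1, a calmodulin relative that regulates calcium channels, was at 0.06. Of the 20 measured targets and binders of calmodulin, 9 were called higher and 2 lower at 3M, and after quantile normalization 2 were higher and 3 lower. Over all tested probes 50.5% were called higher and 3.55% lower, a share that also bears on the counts of the lists that follow. The 2 lower genes were subunits of calcineurin, the calmodulin-dependent phosphatase: Ppp3cb fell by 1.02 and Ppp3r2 fell by 0.82, and both were also lower after quantile normalization (-1.45 and -1.10). Both probes were dim, with mean log2 levels of -0.41 and -0.47, below the array median. Another calcineurin subunit, Ppp3ca, named after its values were seen, was called higher by 0.65 and was at 0.15, not called, after quantile normalization. Pde1a, a calmodulin-dependent phosphodiesterase, was higher by 0.83 and by 1.45 after quantile normalization. Pcp4, a small calmodulin-binding protein, was higher by 0.57 on the median scale and at -0.25 after quantile normalization. Itpka had the largest difference, 1.52 ± 0.88 (SE), but was not called.

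Of the 8 measured pumps and exchangers 5 were called higher and none lower. Atp2a1, a calcium pump of the sarcoplasmic reticulum and also listed as a muscle marker, was higher by 1.04, and Slc8a2, a sodium-calcium exchanger, by 0.95. Both were called by both scalings. On the log2 scale their 3M STZ arrays lay above all Control arrays, as was so for 9.49% of all tested probes. By rank this held for Atp2a1 and not for Slc8a2, and for 6.86% of all tested probes. Of 6 store proteins 4 were called higher, with Calu (calumenin) at 0.92 and Calr (calreticulin) at -0.10, not called. Of 10 subunits of voltage-gated calcium channels 5 were called higher, with Cacna2d1 (0.70) and Cacnb3 (0.62) highest on the median scale and neither called after quantile normalization (0.25 and 0.20), and Cacna1i was lowest at -0.30, not called.

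**Figure D5:**
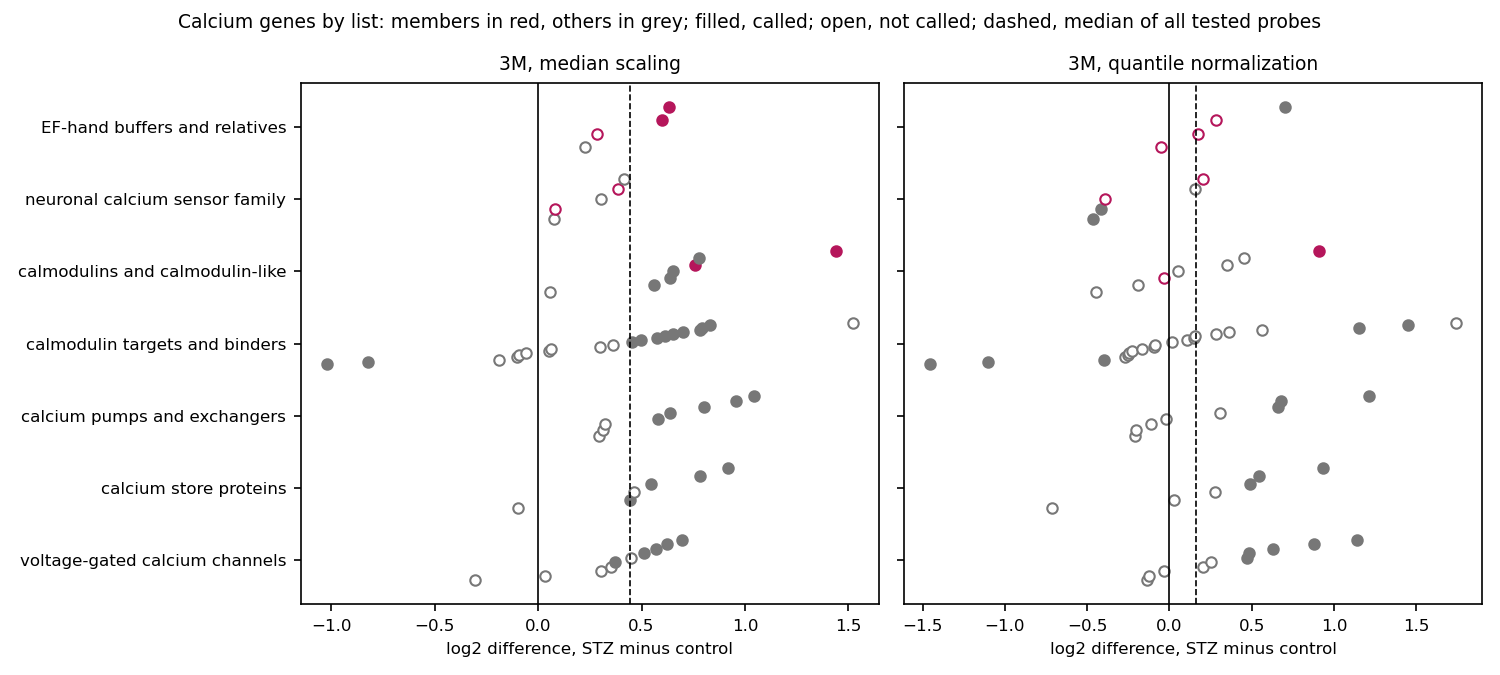
The 3M difference between STZ and Control (log2, horizontal axis) of each measured gene in the 7 calcium lists, after median scaling (left) and after quantile normalization (right), with 1 probe a gene and members in red. Calm3 lies at 1.44 on the left and 0.91 on the right, while Calm2 moves from 0.76 to -0.03.

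Within the groups the members varied together to different degrees. Over the 24 arrays, the Spearman correlation of the deviations from the group means had a median of 0.40 over the 28 pairs of member probes, from -0.09 to 0.82. These arrays share their scaling and their signal spread, and after quantile normalization the median was 0.25. Calb2 and Pvalb had the highest correlation on the median scale (0.82, and 0.53 after quantile normalization, where Vsnl1 and Calm2 GE21756 were highest at 0.72), and the 2 Calm2 probes had 0.77. Calm3 deviated least with the others, with correlations of -0.09 to 0.25. Of the named genes outside the list, the highest correlations were with Copb1 (0.85) for Calb1, with Ldhb and Rab26 (0.89 each) for Calb2, with Pja2 (0.88) for Pvalb, and with Igf1r (0.87) for Hpca. For Vsnl1 it was Polb (0.93), for Calm2 Ran (0.92) and for Calm3 Slc16a10 (0.83). After quantile normalization the correlations of these genes ran from 0.67 (Ldhb) to 0.92 (Polb). Each gene was picked as the highest of all named genes, whose median correlation ran from 0.02 for Hpca to 0.35 for Calm2 on the median scale.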

How the data were processed

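Retinas were measured on 24 CodeLink arrays of 1 colour, in 4 groups of 6. The study's animal data list fewer rats than arrays for the 1M Control group, so the number of separate rats in it is not settled. According to the authors' methods, the CodeLink software excluded defective spots, subtracted the background and normalized within each array. The deposited files give the background-subtracted intensity and a normalized intensity, both linear. Deposited flags were not used, and the depositors' series table, which repeats the normalized values, was not needed. No genome build is named, so no coordinates are given.

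Each array's intensities were divided by its median over rat probes, raised to a floor of 0.01 and put on the log2 scale. Probes were tested if their median scaled intensity exceeded 0.554, the 35th percentile over all probes, and each group had at least 4 values. limma 3.58.1 in R 4.3.3 fitted 1 model of the 4 groups. Calls needed an adjusted p under 0.05 and a 1.2-fold difference, without the fold limit for the interaction. The fit was tested on simulated data. Precision is limited by 6 arrays a group and by signal over background (array medians of 124 to 360 before scaling).

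Symbols came from RefSeq accessions: 4675 of 5469 probes with such an accession had one. For genes with several probes the probe with the highest mean level was used in the lists. Named besides the members were Rcvrn and Pcp4, the 2 highest and 2 lowest genes of each calcium list at 3M, the genes with the highest correlations, and the first measured marker of a list. Single values of some genes that this rule names are not reported here, and the counts include them. Members and lists were chosen with earlier results of these data known. The replicate numbers did not pair the arrays. Alternatives were 16 other settings, 24 fits leaving out 1 array, and 2 settings added after seeing the data.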

Additional observations from a re-analysis of the deposited data

Results flagged for a closer look

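In 4 of the 32 combinations of member probe and group, 1 array lay far from the other 5 on the log2 scale, where chance gives about 1 in 20. Calb1 was 1.75 in 1M Control replicate 5, against 2.12 to 2.26 in the other 5 arrays, and Calb2 was 3.93 in the same array, against 4.52 to 4.75. In 3M Control replicate 2, the array that stood apart from its group, Calb1 was -0.59 against 0.28 to 0.74, and Hpca was 1.67 against 1.15 to 1.30. The Calm3 effect of STZ was greater at 3M than at 1M by 1.67 on the log2 scale, by limma's interaction test.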

How the results depend on the processing

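The count of member probes called at 3M, 5 as reported, was 1 after quantile normalization, on the percentile rank, by the methods' test with and without adjustment, and in both settings added after seeing the data (either scaling without 3M Control replicate 2). It was 4 with separate models of the time points and after subtraction of the 5th percentile, 2 with array brightness as a covariate and 0 with array spread. Leaving out 1 array gave 4 to 6. The count at 1M was 0 throughout. The interaction count, 1 as reported, was 7 with array weights, 0 with array spread as a covariate, 0 on the rank without 3M Control replicate 2, and 1 to 4 with 1 array left out (4 without 3M Control replicate 6). With a replicate block 5 probes were called at 3M, 0 at 1M and 1 for the interaction, and the same-number correlations ran from -0.24 to 0.25, so the numbers were not taken as pairs. The causes were not tested.

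Signs turned at 3M in several members. After quantile normalization the differences were -0.048 (Calb2), -0.39 (Hpca), -0.033 and -0.057 (Calm2), and without 3M Control replicate 2 as well they were -0.078 (Calb1), -0.12 (Calb2), -0.23 (Hpca), -0.011 (Vsnl1), -0.044 and -0.074 (Calm2). By rank, in percentile points, they were -0.17 (Calb2), -5.40 (Hpca), -0.050 and -0.095 (Calm2), and without that array -1.44 (Calb1), -0.39 (Calb2), -3.41 (Hpca), -0.21 (Vsnl1), -0.055 and -0.10 (Calm2). With array spread as a covariate they were -0.30 (Calb1), -0.095 (Calb2), -0.0011 (Pvalb), -0.36 (Hpca) and -0.47 (Vsnl1). With 1 array left out, Hpca ran from -0.015 to 0.16 at 3M, and at 1M Calb1 ran from -0.011 to 0.20, Calb2 from -0.16 to 0.057 and Pvalb from -0.16 to 0.041. With array weights Calb1 was -0.027 at 1M. Calm3 at 3M ran from 1.26 to 1.60 with 1 array left out, called in all 24 of these fits (adjusted p 1.4e-05 to 0.000711, limma).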
